A study of Bos taurus with 33 samples.

Results

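Maturation-promoting factor (MPF) is the kinase CDK1 bound to a B-type cyclin, and its activation takes an oocyte out of prophase arrest after the gonadotropin surge. This account follows the transcripts of 10 genes, CDK1, the cyclins CCNB1 and CCNB2, the inhibitory kinases WEE2 and PKMYT1, the activating phosphatases CDC25B and CDC25C, the kinase PLK1, and the 2 genes of metaphase II arrest MOS and FBXO43. They were chosen by symbol for these roles, with no expression value in the rule, but with earlier results of these data known. All 10 were among the 16279 genes of the oocyte table, and 8 were among the 16244 genes of the cumulus cell (CC) table. WEE2 and MOS had no row in the CC table and were not analysed in CC here.

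The samples were pools of 4 oocytes, or of the CC that had surrounded them, from suckled postpartum beef cows. All cows received gonadotropin-releasing hormone (GnRH) on day -9 and prostaglandin F2 alpha on day -2. Cows without estrus received a second GnRH on day 0, which induced the gonadotropin surge, and their follicles were classed as small (at most 11.7 mm, 6 oocyte and 6 CC pools) or large (at least 12.7 mm, 6 oocyte and 6 CC pools). Cows that showed estrus received no second GnRH and released their own surge. Their follicles (11.7 to 14.0 mm) formed the spontaneous class (4 oocyte and 5 CC pools). Collection followed the second GnRH or estrus by about 20 h by one label and about 23 h by another. Induced or endogenous surge and estrus therefore go together in every comparison with the spontaneous class and cannot be told apart. Follicle size goes with them from small to spontaneous follicles, since the spontaneous limits begin where the small ones end. The spontaneous and large limits overlap, but the authors report different mean diameters for these classes, smaller in spontaneous follicles. Size therefore cannot be told apart from the surge and estrus there either. The spread between pools is the only error measured, since no repeat library of a pool was used, and each pool mixes 4 follicles.

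In the arrested oocyte, WEE2 (also called WEE1B, an oocyte form of WEE1) and PKMYT1 place inhibitory phosphates on CDK1, and the CDC25 phosphatases remove them. PLK1 promotes that switch, and the anaphase-promoting complex later destroys the B cyclins. MOS acts through the MAP kinases, and FBXO43 (EMI2) inhibits the anaphase-promoting complex, so that the egg waits at metaphase II for the sperm. Granulosa-derived cells use CDK1, the B cyclins, the CDC25 enzymes and PLK1 for mitosis, whereas WEE2, MOS and FBXO43 are known mainly from germ cells. These steps act largely on proteins, and the values here are messenger RNA levels in CPM, that is reads scaled to the same total of reads on genes in every pool. In pools of whole cells, fewer cells of a type and less RNA per cell cannot be told apart.

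Reads on genes numbered 7664375 to 17934916 in an oocyte pool and 1911600 to 5772431 in a CC pool, so 3 reads were worth 0.167 to 0.391 CPM in oocytes and 0.52 to 1.57 CPM in CC. Oocyte markers taken for the check (GDF9, ZP2 and 8 others) summed to 10871 to 15315 CPM in the oocyte pools, where all 10 were detected. In CC, 4 of the 10 were listed, and they summed to 1.05 to 13.7 CPM. Cumulus and granulosa markers summed to 12126 to 32881 CPM in CC (11 of 12 listed, none at 0 throughout) and to 769 to 4425 CPM in the oocyte pools, where VCAN reached 3427 CPM. The list is not exclusive to cumulus cells, since STAR (median 388 CPM in oocyte pools, 5.64 in CC), HAS2 (186 and 50.5 CPM) and CD44 (20.1 and 4.31 CPM) were higher in the oocyte pools. FOXL2 was near the floor in CC (median 0.363 CPM, 3 pools at 0). VCAN alone had a median of 15808 CPM in CC, beside a median of 22596 CPM for the whole sum. One CC library, small replicate 3, stood apart. It had the fewest reads, the highest share of reads on mitochondrially encoded genes (42.9%, against 12.4% to 30.9% in the other CC pools), the lowest cumulus marker sum (12126 CPM) and the highest sum of 17 dividing-cell markers (1513 CPM, against 342 to 1051 CPM in the others). The CC class comparisons, the cell type overlap and the spread of the members are given with and without it (the spread and the overlap as alternatives chosen after seeing the data).

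CDK1 (ENSBTAG00000010109), the catalytic subunit, averaged 51.5 ± 22.6 CPM in oocytes of small follicles (SD, n = 6), 51.3 ± 15.8 CPM in those of large follicles (n = 6) and 45.5 ± 9.19 CPM in those of spontaneous follicles (n = 4). The small pools ran from 26.1 to 80.8 CPM with a median of 44.3, and the large pools from 30.1 to 69.0 CPM with a median of 53.6. The spontaneous pools held 44.1, 56.7, 46.9 and 34.4 CPM, all within the range of the small pools.

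CCNB1 (ENSBTAG00000014239), the cyclin whose synthesis and destruction time MPF activity, was the steadiest member across oocyte pools. Small pools ran from 1390 to 2078 CPM (median 1784), large pools from 1745 to 2052 CPM (median 1824), and spontaneous pools held 2016, 1820, 1643 and 1462 CPM. The class means were 1791 ± 253, 1843 ± 107 and 1735 ± 238 CPM. Its coefficient of variation over the 16 pools was 10.9%, and 0.655% of the 10076 retained oocyte transcripts had a lower one. Its mean CPM was above that of 99.7% of them. The lowest CCNB1 pool was small replicate 3, which was also the shallowest oocyte pool and the one with the highest cumulus marker sum.

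CCNB2 (ENSBTAG00000005269), the second B cyclin, averaged 462 ± 115 CPM in small, 425 ± 58.6 CPM in large and 465 ± 81.0 CPM in spontaneous oocyte pools. Small pools spanned 336 to 660 CPM and large pools 331 to 515 CPM, with spontaneous pools at 548, 387, 520 and 405 CPM. The 3 classes overlapped for each of these MPF subunits.

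WEE2 (ENSBTAG00000004658) ran from 1699 to 2932 CPM in small oocyte pools (median 2339) and from 1965 to 2739 CPM in large ones (median 2371). The spontaneous pools held 2363, 1800, 2064 and 2155 CPM. The class means were 2294 ± 471, 2355 ± 270 and 2096 ± 234 CPM, and the ranges of the 3 classes overlapped.

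PKMYT1 (ENSBTAG00000004729), the membrane-bound inhibitory kinase, was the most variable member in oocytes. The 6 small pools held 28.5, 25.2, 4.04, 8.26, 4.21 and 0.0861 CPM, the last being 1 read. Large pools ran from 6.93 to 16.4 CPM and spontaneous pools held 4.85, 9.51, 2.05 and 7.25 CPM. Its coefficient of variation was 78.2%, against 8.93% from read counting alone, and 77.6% of retained transcripts varied less. Its mean CPM was above that of 22.0% of them. The pools with the most and the least PKMYT1 were thus both from small follicles.

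Of the activating phosphatases, CDC25B (ENSBTAG00000008436) ran from 104 to 158 CPM in small and 111 to 173 CPM in large oocyte pools. Spontaneous pools held 146, 161, 175 and 145 CPM. CDC25C (ENSBTAG00000005293) ran from 161 to 238 CPM in small and from 169 to 202 CPM in large pools, with spontaneous pools at 173, 225, 196 and 277 CPM. The large pools were the least spread for CDC25C (188 ± 12.1 CPM, against 199 ± 27.9 in small and 218 ± 44.9 in spontaneous pools), and all the classes overlapped.

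PLK1 (ENSBTAG00000014453), which phosphorylates WEE1-type kinases and CDC25 proteins, averaged 410 ± 60.6 CPM in small, 452 ± 71.7 CPM in large and 480 ± 83.3 CPM in spontaneous oocyte pools. The pools spanned 317 to 482 CPM in small and 347 to 527 CPM in large follicles, and the spontaneous pools held 408, 595, 433 and 486 CPM.

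MOS (ENSBTAG00000019145), the kinase at the head of the oocyte MAP kinase cascade, ran from 200.4 to 407 CPM in small pools (median 231) and from 206 to 331 CPM in large pools (median 221). Spontaneous pools held 307, 229, 419 and 209 CPM. In small pools 1 pool, replicate 2, stood well above the rest, and the classes overlapped.

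FBXO43 (ENSBTAG00000019795) averaged 153 ± 30.3 CPM in small, 170 ± 55.0 CPM in large and 123 ± 16.4 CPM in spontaneous oocyte pools. Small pools ran upward from 114 CPM (median 153) and large pools from 123 to 275 CPM (median 151), while the spontaneous pools held 129, 106, 143 and 115 CPM. All 4 spontaneous pools lay below the median of the large pools, yet their ranges overlapped.

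**Figure D1:**
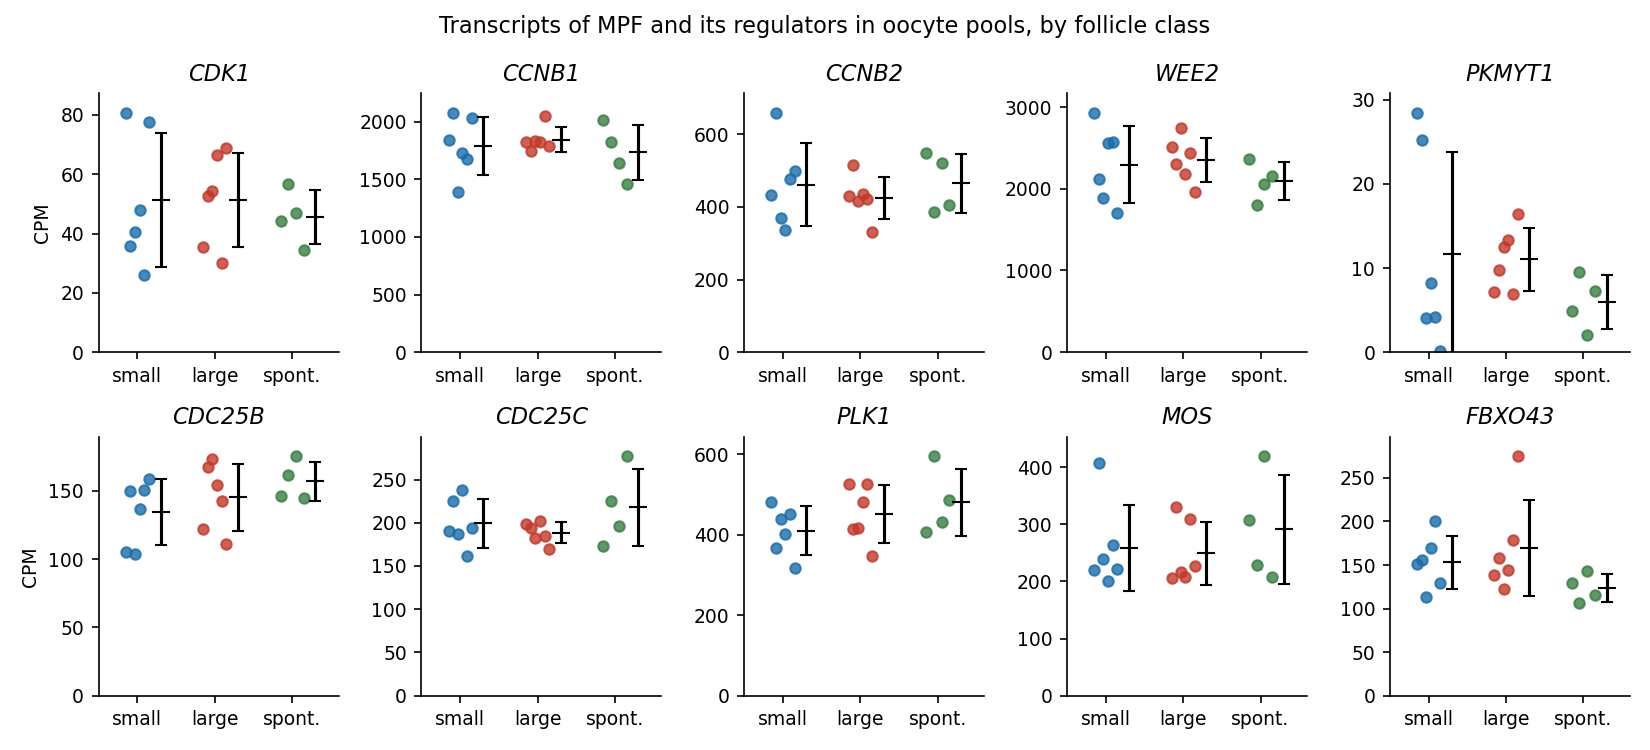
CPM of the 10 members (vertical axes, linear, from 0) in each oocyte pool, with small, large and spontaneous follicles on the horizontal axis; points are pools, and the dash and bar beside them are the class mean and SD, cut off at 0 for PKMYT1. The classes overlap in every panel, CCNB1 pools lie between 1390 and 2078 CPM, and PKMYT1 runs from 0.0861 to 28.5 CPM in small pools alone.

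The first question was whether follicle class, and so the maturity of the follicle at the surge, went with different transcript levels of the MPF machinery in the oocyte. Each pair of classes was compared by limma on log2(CPM + 1), with a call at a nominal p of at most 0.01. In both oocyte comparisons with small pools a call also had to hold without small replicate 3. The authors left that library out in a second analysis because of outlying profiles, and it was also the shallowest oocyte pool. None of the 10 members was called between small and large pools, where 0.655% of all 10076 tested transcripts were, none between small and spontaneous pools (0.774% of all) and none between large and spontaneous pools (0.943% of all). No member had a nominal p under 0.05 in the limma fits, against 4.11%, 4.51% and 4.87% of all transcripts in the same 3 comparisons, and edgeR and DESeq2 on the recovered reads called none either.

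Between small and large oocyte pools the member with the smallest p was PLK1, at a log2 fold change of 0.14 (SE 0.140, limma p = 0.325, adjusted p = 0.997; exact two-sided permutation p = 0.292, smallest possible 0.00216). Between small and spontaneous pools it was again PLK1, at 0.23 higher in spontaneous pools (SE 0.166, limma p = 0.181, adjusted p = 0.987; exact permutation p = 0.19, smallest possible 0.00952). Between large and spontaneous pools it was FBXO43, at -0.41, that is lower in spontaneous pools (SE 0.221, limma p = 0.0734, adjusted p = 0.968; exact permutation p = 0.0571, smallest possible 0.00952). The count models put FBXO43 at -0.48 (edgeR, adjusted p = 0.972) and -0.47 (DESeq2, adjusted p = 0.763), each with a nominal p under 0.05, still short of a call. Large replicate 6, at 275 CPM, carried part of the difference, and without it the limma estimate was -0.26.

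A p that misses the threshold does not show equal levels, and the intervals differed widely between members. For CCNB1 the 95% interval of the log2 fold change ran from -0.15 to 0.25 between small and large pools, from -0.30 to 0.22 between small and spontaneous pools and from -0.31 to 0.12 between large and spontaneous pools. For WEE2 the 3 intervals lay between -0.39 and 0.29. For PKMYT1 they reached from -0.75 to 1.92, from -1.96 to 1.38 and from -2.11 to 0.35, so these pools leave room for a several-fold difference in PKMYT1 and not for one in CCNB1. The members' fold changes had a median of 0.05 in the small to large comparison, -0.0074 in the small to spontaneous one and -0.0041 in the large to spontaneous one, beside 0.05, 0.05 and 0.01 over all tested transcripts. The smallest and the largest member change were -0.88 (large to spontaneous) and 0.59 (small to large), both of PKMYT1. The 0.59 stands against a mean CPM that was lower in large than in small pools and turned to -0.12 in edgeR and in DESeq2, so no direction is given for it. From small to spontaneous pools the count models put PKMYT1 at -1.02, against -0.29 in limma, and from large to spontaneous pools at -0.90 (edgeR) and -0.89 (DESeq2).

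**Figure D2:**
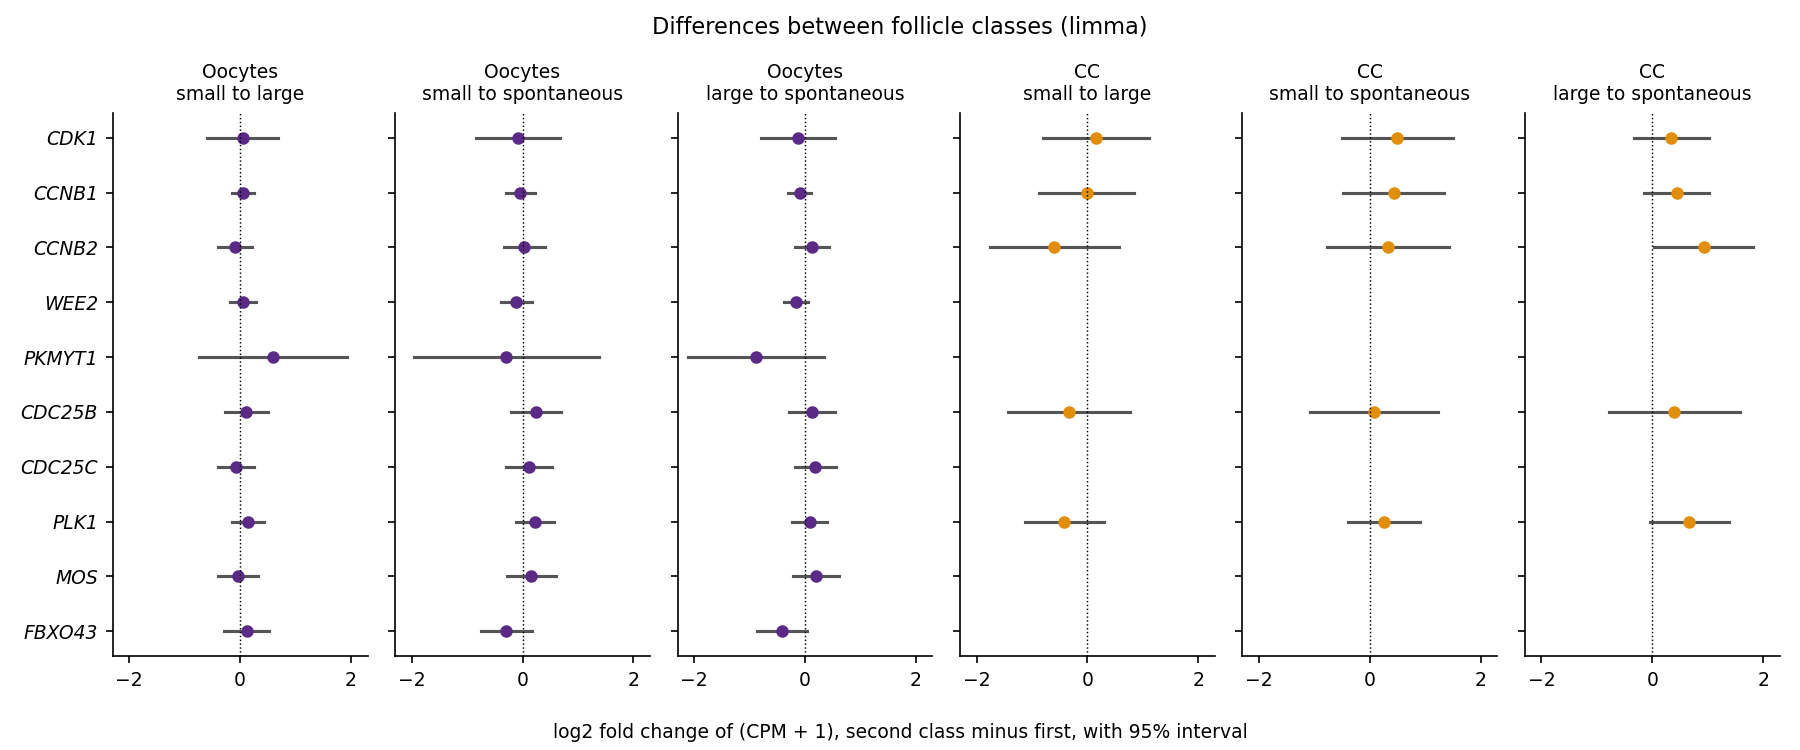
Log2 fold change of CPM + 1 (horizontal axes, second class minus first) for each member that passed the filter on low values, in the 6 class comparisons; points are limma estimates and lines their 95% intervals. All oocyte intervals span 0, narrowest for CCNB1 and WEE2 and widest for PKMYT1; in CC the interval of CCNB2 from large to spontaneous pools (0.04 to 1.82) is the one that does not reach 0.

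The neighbours of MPF in the cell cycle were examined the same way: other CDKs and cyclins, other kinases and phosphatases of CDK1, the MAP kinases, the anaphase-promoting complex, the other Polo-like kinases, 14-3-3 proteins and protein kinase A subunits. Of 63 such genes tested in oocytes, limma called none in any of the 3 comparisons, and 0, 2 and 0 had a nominal p under 0.05. The edgeR and DESeq2 fits also called none of them.

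The oocyte and CC tables were normalized separately, so levels were set side by side with no test. For 6 of the 8 members listed in both, every oocyte pool lay above every CC pool, as for 17.5% of the 14980 genes common to both tables. These were CCNB1, CCNB2, CDC25B, CDC25C, PLK1 and FBXO43. The ratio of mean CPM, oocyte over CC, was 29.6 for CDC25B, 35.2 for PLK1, 49.1 for CCNB2, 69.1 for CCNB1 and 77.9 for CDC25C. CDK1 was the smallest at 4.67, and its highest CC pool (34.0 CPM, small replicate 3) reached into the oocyte range that began at 26.1 CPM. Without that pool the highest CC pool held 18.9 CPM of CDK1, and 7 of 8 members lay above all CC pools, against 17.6% of all genes. Over the 8 members the median log2 ratio was 5.38, and over the 14850 genes with reads in both tables it was 0.06.

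CC reads came more from mitochondrially encoded genes (median 19.7%, against 1.30% in oocytes). With those genes left out, the ratios were 3.53 for CDK1, 22.6 for CDC25B, 27.8 for PLK1, 36.2 for CCNB2, 52.3 for CCNB1 and 59.2 for CDC25C. The order of the members stayed as it was. RNA from cumulus cells in the oocyte pools, or the reverse, was not tested as a part of these ratios beyond the marker sums given above.

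The 2 members at the edge of detection in CC were PKMYT1 and FBXO43. PKMYT1 had 32 reads over all 17 CC pools, was at 0 in 8 of them, and reached 2.62 CPM in small replicate 3, so that it overlapped the oocyte pools of low PKMYT1. FBXO43 had 2 reads over all CC pools, 1 each in small replicate 2 and large replicate 3, against 31101 reads over the oocyte pools. Scaled by depth, that is an oocyte over CC ratio of 5399, with a 95% interval from counting of 1495 to 44580. The interval covers counting error only, since amplified reads are not independent molecules.

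**Figure D3:**
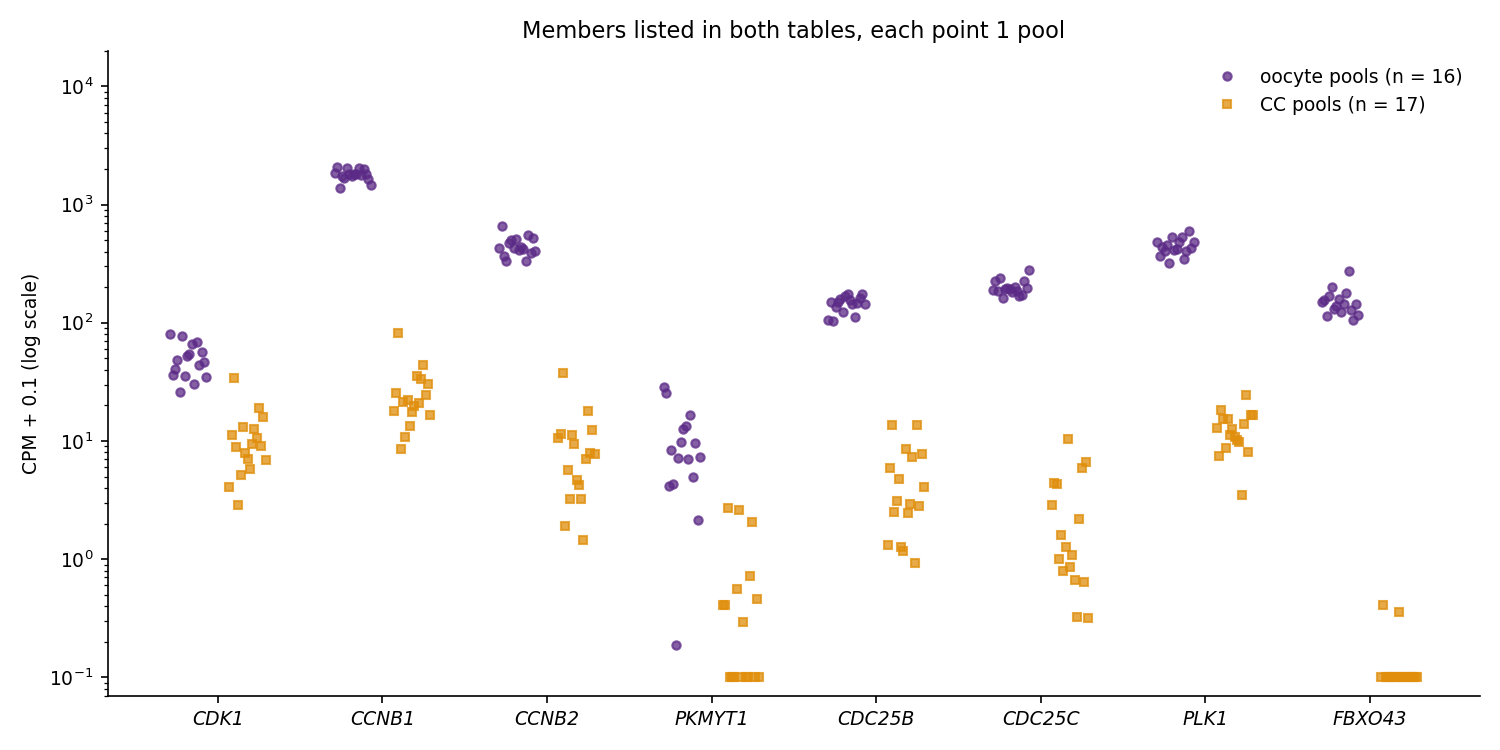
CPM plus 0.1 on a log axis for the 8 members listed in both tables; circles are the 16 oocyte pools and squares the 17 CC pools, with pools at 0 drawn at 0.1. CDK1 and PKMYT1 are the members whose oocyte and CC pools overlap, and FBXO43 shows 15 CC pools at 0.

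The balance of the members within a pool was taken from the same levels, and it differed between the cell types. A ratio of CPM between 2 genes contains their transcript lengths, so only its change between cell types is read here. CCNB1 to CDK1 was 22.8 to 68.2 in the oocyte pools (median 34.7) and 0.966 to 7.69 in the CC pools (median 2.42), with no overlap. CCNB2 to CDK1 was 4.80 to 18.4 in oocytes and 0.109 to 2.62 in CC, PLK1 to CDK1 4.09 to 17.5 and 0.273 to 3.23, and CDC25B to CDK1 1.30 to 5.79 and 0.08 to 1.22.

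Of the 10 ratios among CDK1, CCNB1, CCNB2, PLK1 and CDC25B, the 4 that contain CDK1 were the ones without overlap. They restate the lower oocyte over CC ratio of CDK1 (4.67, against 29.6 to 69.1 for the other 4 genes) and are not a separate result. The share of all gene pairs without overlap was not computed. CDC25B rested on as few as 3 reads in a CC pool. CCNB1 to CCNB2 overlapped, at 3.15 to 5.40 in oocytes and 1.42 to 15.5 in CC. Such ratios do not depend on how a pool was scaled. Within oocytes the CCNB1 to CDK1 ratio was 22.8 to 64.3 in small, 25.9 to 68.2 in large and 32.1 to 45.7 in spontaneous pools, so the classes overlapped. The phosphatase pair leaned the other way in the 2 cell types: CDC25C to CDC25B was over 1 in 16 of 16 oocyte pools and in 3 of 17 CC pools. Its ranges overlapped, at 1.05 to 1.91 in oocytes and 0.0313 to 9.67 in CC. CDC25C, below the filter on low values in CC, rested on 170 reads over all CC pools, 1 to 36 in each.

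**Figure D4:**
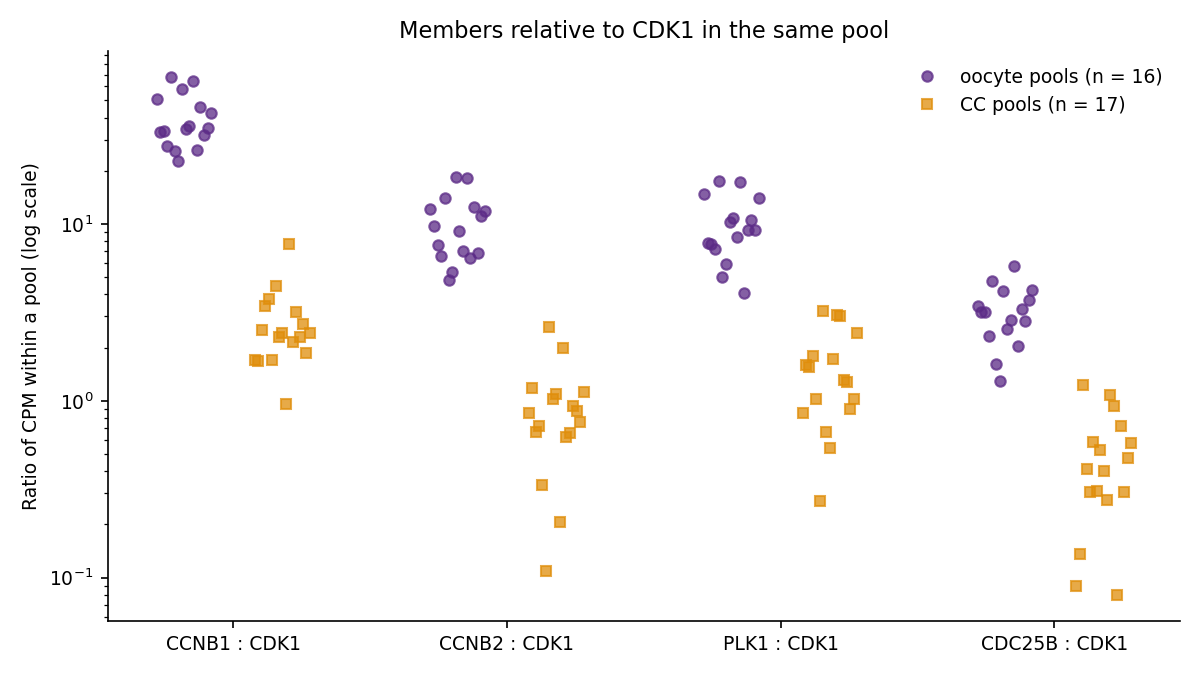
Ratio of a member's CPM to that of CDK1 in the same pool, on a log axis, for CCNB1, CCNB2, PLK1 and CDC25B; circles are oocyte pools and squares CC pools. For each of the 4 ratios the lowest oocyte pool lies above the highest CC pool, by the least for CDC25B (1.30 against 1.22).

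In CC, 5 of the 8 listed members passed the filter on low values (CDK1, CCNB1, CCNB2, CDC25B and PLK1). CDC25C, PKMYT1 and FBXO43 did not. CDK1 ran from 2.78 to 34.0 CPM in small CC pools (median 6.91) and from 5.66 to 12.98 CPM in large ones (median 8.60), and the spontaneous pools held 10.4, 18.9, 8.89, 15.97 and 6.83 CPM. CCNB1 ran from 8.50 to 82.1 CPM in small (median 19.6), from 13.2 to 35.2 CPM in large (median 20.3), and was at 33.4, 43.7, 24.1, 29.9 and 16.5 CPM in spontaneous pools. For both, the top of the small range was replicate 3, and the next small pool was at 11.1 CPM for CDK1 and 25.5 CPM for CCNB1.

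CCNB2 ran from 1.82 to 37.1 CPM in small CC pools (again highest in replicate 3) and from 1.35 to 11.1 CPM in large ones. Its spontaneous pools held 6.90, 17.8, 7.81, 12.2 and 7.72 CPM. PLK1 ran from 7.39 to 18.3 CPM in small and from 3.39 to 12.5 CPM in large pools, with spontaneous pools at 13.8, 24.2, 7.99, 16.3 and 16.5 CPM. CDC25B stayed between 0.836 and 13.7 CPM over all CC pools. CDC25C, below the filter, ran from 0.22 to 10.3 CPM, with its highest pool, large replicate 2, resting on 29 reads. That pool had no FBXO43 read, and its oocyte marker sum was 7.47 CPM, the highest of the large CC pools. Small replicates 6 and 1 had higher sums (13.7 and 8.59 CPM), with CDC25C at 0.693 and 2.76 CPM. Oocyte RNA as a source of the CDC25C reads was not tested.

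Limma called none of the 5 members between small and large CC pools (0.813% of all 9712 tested transcripts were called), none between small and spontaneous pools (2.38% of all) and none between large and spontaneous pools (1.66% of all). Neither edgeR nor DESeq2 called any. At a nominal p under 0.05 limma gave 0, 0 and 1 member, where 4%, 8.55% and 7.07% of all transcripts passed. The 1 was CCNB2, higher in spontaneous than in large pools by 0.93 (SE 0.422, limma p = 0.042, adjusted p = 0.696; exact permutation p = 0.0909, smallest possible 0.00433). All 5 spontaneous pools exceeded the median of the large pools, and the ranges overlapped. That p was above 0.05 with median-of-ratios scaling, without mitochondrially encoded genes, in edgeR and in DESeq2, with estimates of 0.81 to 0.90.

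Between small and large CC pools PLK1 had the smallest p, at -0.42 (SE 0.342, limma p = 0.237, adjusted p = 0.999; exact permutation p = 0.149, smallest possible 0.00216), and at -0.18 without large replicate 6. Without small replicate 3 the small to large estimates were -0.31 for PLK1, 0.55 for CDK1 (0.16 with it), 0.37 for CCNB1 (-0.014 with it), -0.17 for CCNB2 (-0.60 with it) and -0.024 for CDC25B (-0.33 with it), none of them called. Between small and spontaneous pools CDK1 did, at 0.50 higher in spontaneous pools (SE 0.475, limma p = 0.308, adjusted p = 0.816; exact permutation p = 0.84, smallest possible 0.00433). On counts the CDK1 estimate turned to -0.086 in edgeR and -0.16 in DESeq2, so no direction is given for it.

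Without small replicate 3 the small to spontaneous estimates of the 5 members lay between 0.36 and 0.90, with CDK1 at 0.90 (limma adjusted p = 0.512) and CCNB1 at 0.81 (limma adjusted p = 0.432), the 2 with a nominal p under 0.05. No member was called without that pool either. With it, the 5 members lay between 0.07 and 0.50 (median 0.33), beside a median of 0.16 over all tested transcripts. From large to spontaneous pools all 5 estimates were positive, from 0.34 to 0.93 (median 0.44, against 0.11 over all transcripts, 65.6% of which were positive), and they were also positive in edgeR, DESeq2 and with median-of-ratios scaling. From small to spontaneous pools 5 of 5 were positive in limma, as were 71.9% of all transcripts. There 4 of 5 were positive with median-of-ratios scaling, and 1 of 5 in edgeR and in DESeq2. The comparisons with the spontaneous class share its 5 pools.

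Of the 54 neighbouring cell cycle genes tested in CC, none was called between small and large pools in limma, edgeR or DESeq2, with 2 at a nominal limma p under 0.05. From small to spontaneous pools limma called 4, all higher in spontaneous pools, where 2.28% of all transcripts were called in that direction. That lean of all calls depended on the scaling: 221 of 231 were higher in spontaneous pools in limma, 78 of 127 with median-of-ratios scaling, 74 of 130 without mitochondrially encoded genes, 73 of 128 in edgeR and 108 of 217 in DESeq2. They were ANAPC1, the largest subunit of the anaphase-promoting complex (log2 fold change 1.03, SE 0.181, limma adjusted p = 0.0569), RPS6KA3, a kinase below the MAP kinases (0.57, adjusted p = 0.295), YWHAZ, a 14-3-3 protein (0.66, adjusted p = 0.372), and MAP2K1, the kinase that activates the MAP kinases (0.55, adjusted p = 0.418). ANAPC1 was the one still called with median-of-ratios scaling, without mitochondrially encoded genes and in edgeR, and DESeq2 kept it together with RPS6KA3. Without small replicate 3 limma called 5, namely ANAPC1, RPS6KA3, YWHAZ, UBE2C and the S-phase and mitotic cyclin CCNA2. From large to spontaneous pools limma called 1, UBE2C, the ubiquitin-conjugating enzyme of that complex, at 0.99 higher in spontaneous pools (SE 0.311, limma adjusted p = 0.567; 1.45% of all transcripts called in that direction, 141 of 161 calls, against 61 of 115 with median-of-ratios scaling). UBE2C was not called with either other scaling or by edgeR or DESeq2, and DESeq2 called CDKN1A, a CDK inhibitor, in its place.

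The members' levels in CC were set against the 17 dividing-cell markers (MKI67, TOP2A, BUB1 and others, none of them a member). Over the 17 CC pools the log2 level of CCNB2 and the log2 summed level of the markers had Pearson's r = 0.85 (permutation p = 1e-05, the smallest that 100000 permutations can give, adjusted over 5 relations 5e-05) and Spearman's rho = 0.848 (adjusted permutation p = 0.0002). For CDK1 r was 0.836 (adjusted permutation p = 0.000125) and rho 0.696 (adjusted p = 0.00667), and for CCNB1 r was 0.792 (adjusted permutation p = 0.0003) and rho 0.63 (adjusted p = 0.0132). Without small replicate 3 and spontaneous replicate 2, the pools farthest from the median marker sum, r was 0.707 for CCNB2, 0.662 for CDK1 and 0.55 for CCNB1.

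For PLK1 r was 0.504 (adjusted permutation p = 0.0496) and rho 0.51 (adjusted p = 0.0482), and without the same 2 pools r was 0.256. Without the small class r for PLK1 was 0.747, without the large class 0.509 and without the spontaneous class 0.312, so its size depended on which pools were used. For CDC25B r was 0.414 (adjusted permutation p = 0.0993), rho 0.13 (adjusted p = 0.622), and r without the 2 pools -0.0973. Leaving out each follicle class in turn gave r of 0.813 to 0.883 for CCNB2, 0.739 to 0.898 for CDK1 and 0.569 to 0.886 for CCNB1. All values of a pool share its library and depth. Of the 17 markers themselves 1, KIF11, was called from large to spontaneous pools, where 1.66% of all transcripts were. None was called in the other 2 CC comparisons. From large to spontaneous pools 17 of 17 had positive estimates, beside 65.6% of all transcripts. From small to spontaneous pools 16 of 17 did, beside 71.9%. The lean of all transcripts depended on scaling. Their median log2 fold change was 0.11 and 0.16 in these 2 comparisons, and 0.01 in both with median-of-ratios scaling. The part of dividing cells in the CC differences, and the cell type that the marker reads came from, were not tested.

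**Figure D5:**
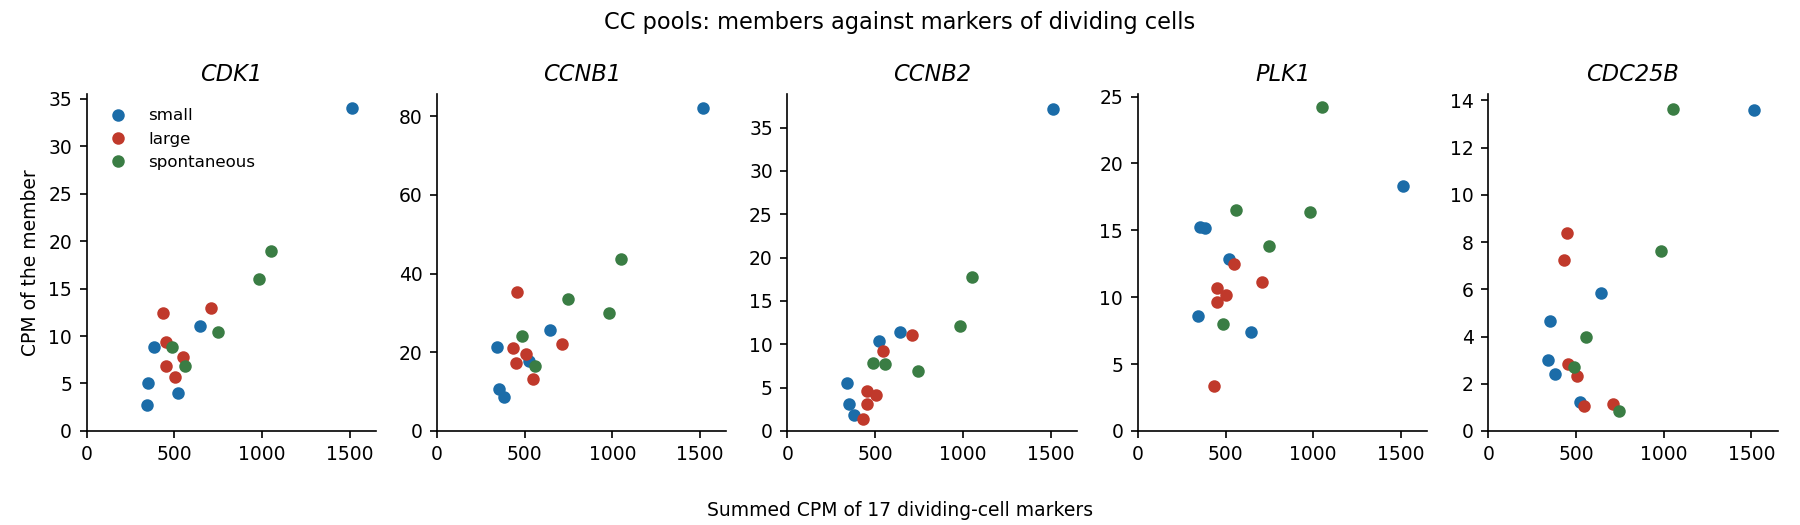
CPM of 5 members (vertical axes) against the summed CPM of 17 dividing-cell markers (horizontal axes) in the 17 CC pools, coloured by follicle class. CDK1, CCNB1 and CCNB2 are highest in small replicate 3, the pool with the highest marker sum (1513 CPM), and also climb with the sum among the other pools; CDC25B does not.

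The genes whose log2 level was most like that of a member across pools differed between the cell types. In CC, among 5185 genes with a mean of at least 20 CPM, those nearest to CDK1 by Pearson's r were ANLN (0.814), CENPE (0.807), BIRC5 (0.804), KPNA2 (0.789) and KIF23 (0.783), several of them known from mitosis. Those nearest to CCNB1 were DLGAP5 (0.859), KPNA2 (0.819), BUB1B (0.818), TOP2A (0.782) and VPS26A (0.779). Without small replicate 3 these r were 0.698 to 0.757 for CDK1 and 0.589 to 0.806 for CCNB1. In oocytes, among 6008 such genes over 16 pools, MED1 (0.824), HAUS5 (0.796), ZNF177 (0.789) and RBL2 (0.775) were among the 5 nearest to CDK1. KIAA1549 (0.832), SH2B3 (0.77), PMP22 (0.769), PDCD6 (0.746) and TBC1D14 (0.731) were nearest to CCNB1. These are the top of all those correlations over few pools and are given as a description.

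Set against the median retained transcript, with no match for level, the spread of the members between pools ran in opposite directions in the 2 cell types. In oocytes 9 of the 10 members varied less than the median retained transcript (coefficient of variation 45.9%), from CCNB1 at 10.9% and CDC25C at 14.6% to CDK1 at 33.3%, and PKMYT1 varied more. In CC all 5 retained members varied more than the median transcript there (33.9%), from PLK1 at 38.8% to CCNB2 at 92.1%. Small replicate 3 carried part of this: without it CCNB2 was at 60.5%, CDK1 at 46.9%, CCNB1 at 41.6%, CDC25B at 80.7% and PLK1 at 39.3%, each still above the median transcript (32.5%). Read counting alone would give 14.3% for PLK1 and 16.8% for CCNB2 in CC, and 0.667% for CCNB1 and 4.00% for CDK1 in oocytes. Levels in CC were lower, and lower levels carry more counting error, so the 2 sets of values are not on an equal footing. Level also differed from that of the median transcript. By mean CPM the 9 steadier oocyte members stood above 59.5% (CDK1) to 99.8% (WEE2) of retained transcripts, and PKMYT1 above 22.0%. The 5 CC members stood above 4.39% (CDC25B) to 48.9% (CCNB1). Spread at matched level was not tested.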

How the data were processed

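Total RNA of each pool was reverse transcribed and amplified (Ovation RNA-Seq System V2) and sequenced as cDNA libraries. The authors aligned the reads with HISAT2 to the bovine genome (UMD3.1 per the labels), counted them per gene with featureCounts, and deposited CPM (reads scaled to a fixed library total), 1 table for oocytes and 1 for CC, with equal column totals. Strand use in counting was not given in the sources used here, so reads of overlapping genes cannot be told apart. Every CPM value was a whole multiple of 1 read (within 0.02 reads), which gave back the reads and the depth of each pool. All columns were mapped to a sample (0 left over).

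A gene entered the fits when 4 oocyte pools, or 5 CC pools, reached 5 CPM. Pairs of classes within a cell type were fitted with limma 3.58.1 (mean-variance trend) in R 4.3.3 on log2(CPM + 1), a scale that understates changes of low genes, with Benjamini-Hochberg adjustment over all genes tested. A call needed a nominal p of at most 0.01. edgeR 4.0.16 and DESeq2 1.42.0 on the recovered reads were alternatives. The scripts were tested on simulated data. Exact permutation tests (scipy 1.17.1) compared mean CPM, two-sided. Fold changes with p were printed for the member with the smallest limma p in each comparison and any other under 0.05, other pathway genes when called, and the 5 genes most like CDK1 and CCNB1 (mean of at least 20 CPM). In oocytes 1 of the 5 for CDK1 is not reported here. The fits were repeated with 0.1 as pseudocount, without the filter or with a mean of 1 CPM in its place, after scaling by median of ratios, after removal of mitochondrially encoded genes, with the 3 classes fitted together, with the replicate number as a block, and with each pool left out. The members and lists were chosen with earlier results of these data known. Depth set a floor of 3 reads per pool, and intervals and floors cover counting error only. Genome coordinates were not used here.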

Additional observations from a re-analysis of the deposited data

Results flagged for a closer look

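Within each class, the highest or lowest pool of a member was marked when its gap to the next pool took up more of the group's range than Dixon's 95% limit allows. For normal values in independent groups that limit would mark about 1 group in 20, or 2.65 of the 53 groups examined. Here 13 were marked, 5 of them in CC small replicate 3, the shallowest CC pool. The 2 numbers are not a test, since members share libraries and low counts are not normal. A group with 1 read in 1 pool and 0 in the rest is always marked.

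In CC small replicate 3, CDK1 was at 34.0 CPM (other small pools 2.78 to 11.1), CCNB1 at 82.1 CPM (8.50 to 25.5), CCNB2 at 37.1 CPM (1.82 to 11.4), CDC25B at 13.6 CPM (1.23 to 5.85) and PKMYT1 at 2.62 CPM (0 to 0.308, resting on 5 reads). In CC large replicate 2, CDC25C was at 10.3 CPM (other large pools 0.226 to 1.16) and PKMYT1 at 2.49 CPM (0 to 0.463). PLK1 was low in CC large replicate 6, at 3.39 CPM (9.66 to 12.5). FBXO43 was marked at 0.308 CPM in CC small replicate 2 and 0.255 CPM in CC large replicate 3, each a single read among pools at 0.

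In oocytes, CCNB1 was at 2052 CPM in large replicate 5 (other large pools 1745 to 1828), MOS at 407 CPM in small replicate 2 (200.4 to 264) and FBXO43 at 275 CPM in large replicate 6 (123 to 179). Their causes were not tested.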

How the results depend on the processing

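The count of members called was 0 in all 6 comparisons under every alternative run, and the count of members with every oocyte pool above every CC pool kept within 1.5 times of 6. The CDK1 estimate from small to spontaneous CC pools, 0.50, turned to -0.086 in edgeR and -0.16 in DESeq2. From small to large CC pools it was 0.16 and turned to -0.43 in edgeR and -0.46 in DESeq2. Other pathway genes called moved as follows. From small to large CC pools 0 became 1 with no filter, and 0 to 1 with 1 pool left out (1 without large replicate 2). From small to spontaneous CC pools 4 became 1 with median-of-ratios scaling, 1 without mitochondrially encoded genes, 1 in edgeR and 2 in DESeq2, and 2 to 5 with 1 pool left out (2 without small replicate 2 or 4 or spontaneous replicate 4 or 5). From large to spontaneous CC pools 1 became 0 with no filter, median-of-ratios scaling, CPM without mitochondrially encoded genes, all 3 classes in one fit, or edgeR, and 0 to 5 with 1 pool left out (5 without large replicate 2, 3 without spontaneous replicate 1, 2 without large replicate 3, 0 without large replicate 6 or spontaneous replicate 4). From small to spontaneous oocyte pools it was 0 to 1, the 1 being CDKN1A without small replicate 3. The causes were not tested.

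Over all transcripts, DESeq2 called 113, 121 and 181 in the oocyte comparisons (small to large, small to spontaneous, large to spontaneous) against 66, 78 and 95 in limma. From small to spontaneous CC pools 231 became 127 with median-of-ratios scaling, 130 without mitochondrially encoded genes and 128 in edgeR, and from small to large CC pools 79 became 137 with all 3 classes in one fit. With no filter 66, 95 and 79 became 105, 156 and 121 (oocyte small to large, oocyte large to spontaneous, CC small to large). Among single pools left out, oocyte small replicate 3 and spontaneous replicate 3 moved 78 to 130 and 49, oocyte spontaneous replicate 2 moved 95 to 145, CC small replicate 5 moved 79 to 52, CC spontaneous replicate 5 moved 231 to 141 and 161 to 99, and CC spontaneous replicate 4 moved 161 to 88.

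Within a cell type, same-numbered pools of different classes deviated together weakly or not at all. Correlations were -0.132 to 0.138 over 14 oocyte pairs and -0.19 to 0.224 over 16 CC pairs, with 1 and 3 over 0.1. The main fits therefore did not pair classes by number. Oocyte pools were not compared with CC pools of the same number, so pairing between the cell types was not tested. With the replicate block 0 members were called in every comparison, 2 other pathway genes instead of 1 from large to spontaneous CC pools, and 42 instead of 78 transcripts from small to spontaneous oocyte pools. In CC, 3 reads were worth up to 1.57 CPM, above most values of PKMYT1 and FBXO43 there.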
